A study of Mus musculus with 265 samples.

Results

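Accessible chromatin was examined at the genes of the NF-kappaB factors and their inhibitors in mouse pre-B cells before and after nuclear induction of Ikaros. The members were 10 genes: Nfkb1, Nfkb2, Rel, Rela and Relb, which encode the factor subunits, Nfkbia, Nfkbib, Nfkbie and Nfkbiz, which encode IkB-type proteins, and Tnfaip3, which encodes A20. A region of the deposited matrix was counted as a member when its nearest protein-coding start site was that of one of these genes and lay within 50 kb. This gave 27 of 20103 regions, for 9 of the 10 genes. Nfkbia had 5 regions, Nfkbiz and Tnfaip3 had 4 each, Nfkb1, Nfkb2, Rel and Rela had 3 each, and Relb and Nfkbie had 1 each.

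NF-kappaB proteins bind DNA as pairs of subunits, and in resting cells IkB proteins hold many of these pairs in the cytoplasm. Signals from surface receptors activate IkB kinase, IkB is then degraded, and the freed pairs enter the nucleus and bind kappaB sites. Nfkbia and Tnfaip3 are themselves well-known target genes whose products shut the response down again, and the family takes its name from an enhancer of the immunoglobulin kappa light chain, a gene that pre-B cells rearrange.

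The cells were ERt2-Ikaros inducible B3 cells, a mouse pre-B line in which Ikaros is fused to a hormone-binding domain and moves to the nucleus when 4-hydroxytamoxifen (4OHT) is added. The 0-hour cells were collected before, and the 24-hour cells after, 24 hours with 20 mM 4OHT as the labels give it, with a second dose at about 12 hours. Each cell was captured on a Fluidigm C1 and its open DNA was tagged with Tn5 transposase. The matrix held 227 of 259 labelled cells: 48 in C1 run 1 and 47 in run 2 at 0 hours, and 60 in run 3 and 72 in run 4 at 24 hours. The numbers of regions and of cells per time-point in the matrix are not those stated in the study. Both time-points carried the same fusion construct, a single cell line was used, and neither the labels nor the methods say whether the runs came from separate cultures. The tests therefore measure differences against the spread between runs, which may be technical. The construct has no row in the matrix, so the induction itself could not be checked here.

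The runs summed to 92639 to 164357 counts, and run 1 was the deepest, with a median of 2898 counts per cell against 1676 to 1839.5 in the other 3 runs. Because the chance of seeing a region rises with depth, shares of cells are given as observed and after thinning each cell to 837 counts, which left out 1 cell at 0 hours and 22 cells at 24 hours. Thinned shares are expected values. The fit with thinned cells instead used 1 random draw of counts and carries the error of that draw. No pair of cells held identical values. Among lineage markers, 8 of 10 B lineage genes had a region within 1 kb of their start site, with 0.514 to 1.33 such regions detected per cell in the 4 runs. Of 7 T cell genes only Cd5 had one, of 6 myeloid genes only Lyz2, and of 4 erythroid genes none. These lists gave at most 0.0333 T cell and 0.0638 myeloid regions per cell.

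Several of the genes carry kappaB sites at their own start sites, so the sequences that bear on the accessible regions are shown first. The kappaB consensus of 10 letters was searched on both strands. It was found in 4 of the 27 regions (14.8%), against 4.63% of all 20103 regions. Among regions 100 to 200 bp wide the shares were 4 of 21 (19%) and 4.76%. The 4 regions belonged to Nfkb2, Nfkbia (both of the regions nearest its start) and Tnfaip3. In the RefSeq promoter windows (GRCm38.p6, 250 bases before to 50 after a start), 7 of 10 windows of 7 member genes held the consensus, against 8.46% of 32851 windows. Counted by gene, 5 of the 7 had it in at least 1 window, against 9.55% of 27025 genes: Nfkb2 gave 3 of the 7 windows, and Rela, Nfkbib and 1 of the 2 Tnfaip3 windows had none. Nfkb1, Relb and Nfkbiz had no window in that table. In the sequences below, 250 bases upstream of the RefSeq start are written 5′ to 3′ on the gene's strand, the 2 regions on the forward strand of mm10 without their exonic bases, and capitals mark the consensus.
Nfkbia promoter, chr12:55492648-55492897, minus strand: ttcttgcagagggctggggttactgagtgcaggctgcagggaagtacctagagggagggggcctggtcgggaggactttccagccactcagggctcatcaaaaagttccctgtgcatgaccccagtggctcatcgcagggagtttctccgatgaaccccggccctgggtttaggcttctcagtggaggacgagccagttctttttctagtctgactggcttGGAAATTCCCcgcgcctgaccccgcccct
Nfkbie promoter, chr17:45555450-45555699, plus strand: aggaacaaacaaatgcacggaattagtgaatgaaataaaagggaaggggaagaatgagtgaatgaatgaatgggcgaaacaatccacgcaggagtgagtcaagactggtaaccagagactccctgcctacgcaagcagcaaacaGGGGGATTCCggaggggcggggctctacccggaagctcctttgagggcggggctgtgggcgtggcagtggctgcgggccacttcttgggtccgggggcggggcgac
Rel promoter, chr11:23770970-23771219, minus strand: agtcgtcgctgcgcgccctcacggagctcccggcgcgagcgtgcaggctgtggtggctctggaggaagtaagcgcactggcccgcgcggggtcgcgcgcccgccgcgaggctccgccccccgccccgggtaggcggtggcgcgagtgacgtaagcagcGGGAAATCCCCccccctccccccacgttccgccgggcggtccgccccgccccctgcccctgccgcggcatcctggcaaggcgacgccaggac
Nfkbia intron region, chr12:55491955-55492107: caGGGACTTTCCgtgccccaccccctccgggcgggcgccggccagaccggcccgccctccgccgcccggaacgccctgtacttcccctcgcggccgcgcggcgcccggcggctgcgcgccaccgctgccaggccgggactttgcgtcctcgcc
Tnfaip3 start region, chr10:19015411-19015470: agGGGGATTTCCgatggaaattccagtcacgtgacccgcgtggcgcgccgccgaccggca
The site of the Nfkbia promoter began 29 bases upstream of the start and lay inside an accessible region, while the 2 overlapping sites of the Rel promoter, 92 and 91 bases upstream, lay between accessible regions. The Nfkbie site straddled the edge of its region. A match describes the letters only, and binding was not measured.

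Signal at these regions was sparse. Each was detected, with a value of 1 or 2, in 5 to 34 of the 227 cells, with a median of 10 cells against 13 for all regions. In all, 4 of the 27 had signal in 10% of cells or more, and 23.7% of all regions reached that share. Of the 27 regions, 13 lay within 1 kb of the gene's start site (48.1%, against 43.7% of all regions), and 26 had a single copy in the genome. At least 1 of the regions was detected in 159 of the 227 cells (70.0%).

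**Figure D1:**
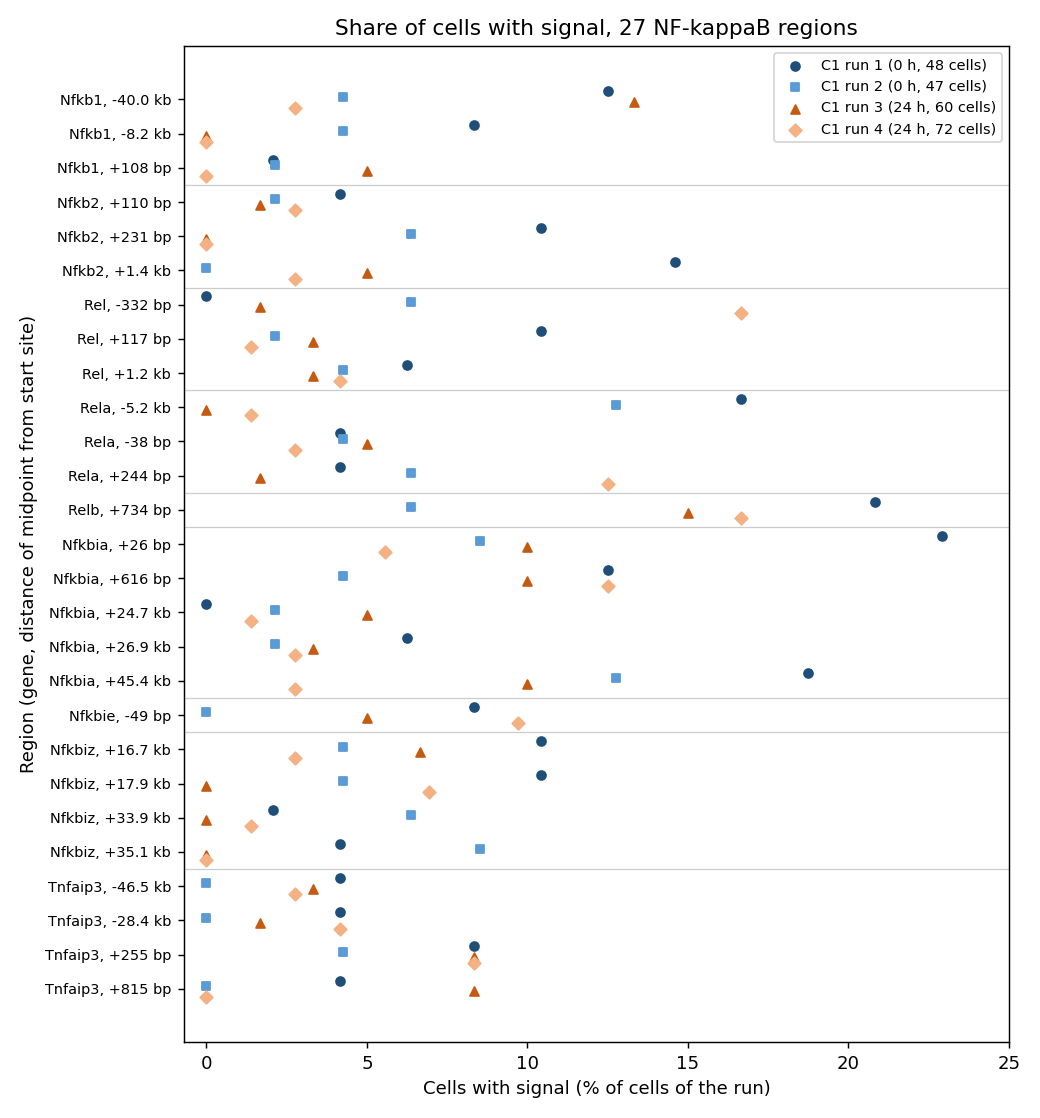
Share of the cells of each C1 run with signal (x axis, % of cells) in each of the 27 regions (y axis, named by gene and distance of the midpoint from the start site, negative upstream); each point is 1 run. No region reached 25% in any run, and the Nfkbia and Relb regions reached the highest shares, up to 22.9% and 20.8% in run 1.

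No region or gene of the family passed the test between time-points. With edgeR's quasi-likelihood test on counts summed per run and Benjamini-Hochberg adjustment over all regions, 0 of 27 were called lower at 24 hours and 0 higher, where 0.0149% and 0.0398% of all regions were called. At an unadjusted p under 0.05, 4 of the 27 were lower and 1 was higher, beside 7.0% and 5.11% of all regions. Of the 4, 3 had no cell with signal at 24 hours. Since no region of the matrix has signal in under 5 cells, these 3 are in it only through their 0-hour cells, and their difference supports nothing. The same limit holds for the 4th, 5.16 kb upstream of Rela, with 14 cells at 0 hours and 1 at 24 hours. The 1 higher region, 332.5 bp upstream of Rel, had 3 cells at 0 hours and 13 at 24 hours. It is in the matrix only through its 24-hour cells. By DESeq2, 0 were called in either direction, and 2 were lower and 0 higher at an unadjusted p under 0.05, beside 3.15% and 2.25% of all regions. The fitted log2 changes of the 27 had a median of 0.18, with 13 below 0 and 14 above, while the median of all regions was -0.06. This sign depended on the scaling. With the number of cells in place of normalized totals, the median of all regions moved to -0.51 and that of the 27 to -0.23.

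**Figure D2:**
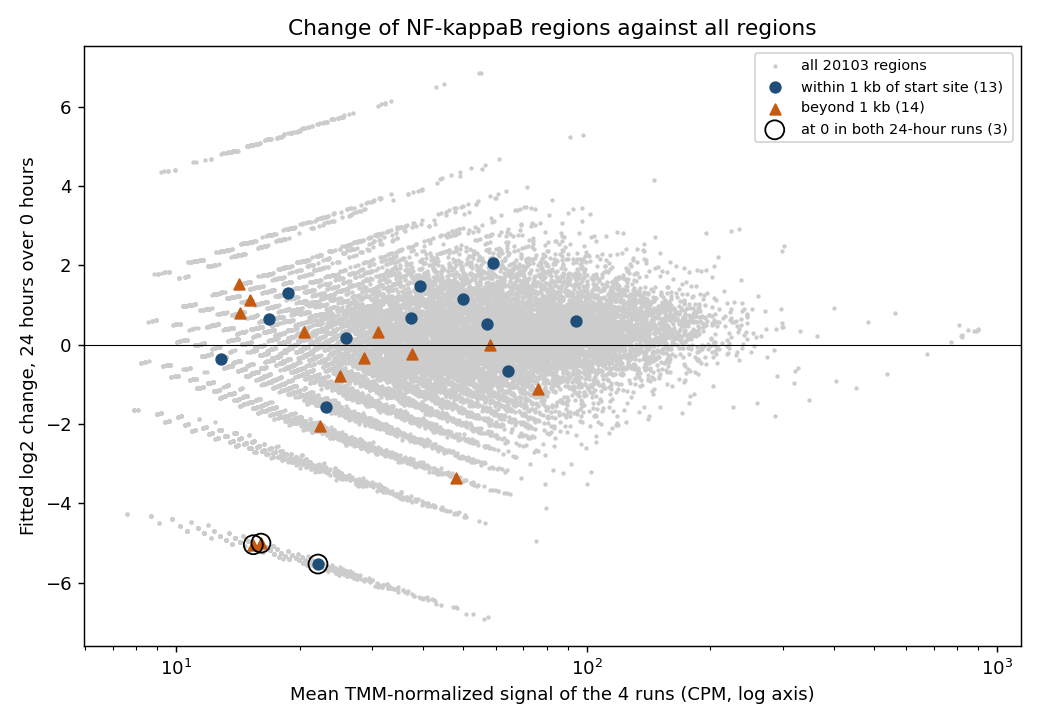
Mean normalized signal of the 4 runs (x axis, CPM, log axis) against the fitted log2 change from 0 to 24 hours (y axis) for all 20103 regions in grey and the 27 NF-kappaB regions in colour, with rings around the 3 at 0 in both 24-hour runs. The NF-kappaB regions lie within the cloud of all regions, and those within 1 kb of a start site have a median of 0.61 against -0.28 for those beyond.

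The fitted changes were next set out by distance from the start site. The 13 regions within 1 kb had a median log2 change of 0.61, and 4 of them were below 0, against a median of 0.33 and 35.4% below 0 for all 8786 such regions. The 14 regions beyond 1 kb had a median of -0.28, with 9 below 0 and 5 above, against a median of -0.54 and 64.8% below 0 for all 11317 such regions. The difference between near and distant regions was not tested.

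In shares of cells as observed, the 0-hour runs both exceeded the 24-hour runs at 7 of 27 regions, where 33.7% of all regions showed this order, and the reverse order was seen at 0 of 27, where 8.59% of all regions showed it. After thinning to equal depth the numbers were 8 and 4 of 27, beside 26.5% and 17.4% of all regions. The 3 regions with no cell at 24 hours are among the 7 and among the 8. So is the Rela region 5.16 kb upstream, with 1 cell at 24 hours. The Nfkbiz region 33.9 kb downstream, also with 1 cell at 24 hours, is among the 7. The 4 were the Rela region 38.5 bp upstream, the Relb region 734 bp downstream, the Tnfaip3 region 255 bp downstream and the Nfkbia intron region.

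Among the factor subunits, Rela encodes p65, the subunit with a strong activation domain found in the most common NF-kappaB pair. Its region 5.16 kb upstream (chr19:5632251-5632394, between genes) had signal in 8 of 48 cells of run 1 (16.7%, 95% interval 7.48 to 30.2) and 6 of 47 of run 2 (12.8%, 4.83 to 25.7). At 24 hours it had signal in 0 of 60 cells of run 3 and 1 of 72 of run 4 (1.39%, 0.0352 to 7.50). Both 0-hour runs were above both 24-hour runs, and this remained so after thinning, at 5.54% and 6.40% against 0% and 1.36%. With 14 cells at 0 hours and 1 at 24 hours, the region reaches the 5-cell minimum of the matrix only through its 0-hour cells. Its order and its change therefore support nothing. The fitted log2 change was -3.36 (SE 1.11), with an unadjusted p of 0.00388 and an edgeR adjusted p of 0.210, the smallest among the 27 regions. Its log2 change was -3.58 without run 1, -3.12 without run 2 and -2.48 without run 3, while without run 4 the 24-hour side is at 0 and no fold is given. With thinned cells it was -1.66 (edgeR adjusted p = 0.745), by DESeq2 the adjusted p was 0.857, and over all 10 alternatives the adjusted p ranged from 0.155 to 0.880. It was singled out after its values were seen. Intervals are exact Clopper-Pearson intervals and cover counting error only.

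Neither of the 2 regions at the Rela start was lower in both 24-hour runs. The region 38.5 bp upstream was detected in 2, 2, 3 and 2 cells of runs 1 to 4, with a log2 change of 0.18 (SE 1.20, edgeR adjusted p = 0.970). The region 244 bp downstream, in the 5′ UTR, was detected in 2, 3, 1 and 9 cells. Its high value was that of run 4 alone, and the time-points overlapped.

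Rel encodes c-Rel, a subunit that is abundant in lymphocytes. Its region 332.5 bp upstream (chr11:23771260-23771345) had signal in 0 of 48 cells of run 1, 3 of 47 of run 2 (6.38%, 1.34 to 17.5), 1 of 60 of run 3 (1.67%, 0.0422 to 8.94) and 12 of 72 of run 4 (16.7%, 8.92 to 27.3). The 2 runs at 24 hours thus differed by more than the time-points did, at 3.16% of cells at 0 hours and 9.85% at 24 hours. The fitted log2 change was 2.07 (SE 1.02, unadjusted p = 0.0467, edgeR adjusted p = 0.401). With 3 cells at 0 hours and 13 at 24 hours, the region reaches the 5-cell minimum of the matrix only through its 24-hour cells. Its change therefore supports nothing. Without run 3 it became the only one of the 27 regions to be called in any of the fits run, with a log2 change of 3.06 and an adjusted p of 0.0103. Without run 4 the value turned to -1.34, so the value rests on which 24-hour run is kept. Over all 10 alternatives the adjusted p ranged from 0.0103 to 0.999. It was also singled out after its values were seen.

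The Rel region just downstream of the start, in the 5′ UTR, was detected in 5, 1, 2 and 1 cells of runs 1 to 4 (log2 change -1.57, SE 1.29, edgeR adjusted p = 0.682). With 1 run left out this change ranged from -2.19 to -0.77. Another Rel region, in an intron 1.17 kb downstream, was detected in 3, 2, 2 and 3 cells. None of the Rel regions holds the kappaB consensus.

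The sequences of the 2 regions singled out above, and of 3 distant regions higher in both 0-hour runs that were picked after their values were seen, are given on the forward strand of mm10. Capitals mark GGGAA or its reverse complement TTCCC, the core of sites that Ikaros binds, searched on both strands. This core is also the start of many kappaB sites, as on the opposite strand of the Nfkbia promoter site above.
Rela region 5.16 kb upstream, chr19:5632251-5632394: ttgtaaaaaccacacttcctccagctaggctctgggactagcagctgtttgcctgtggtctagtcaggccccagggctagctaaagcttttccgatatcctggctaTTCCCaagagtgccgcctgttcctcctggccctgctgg
Rel region 332.5 bp upstream, chr11:23771260-23771345: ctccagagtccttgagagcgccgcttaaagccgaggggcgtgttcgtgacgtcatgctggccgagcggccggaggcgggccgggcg
Nfkb1 region 8.16 kb upstream, chr3:135699661-135699760: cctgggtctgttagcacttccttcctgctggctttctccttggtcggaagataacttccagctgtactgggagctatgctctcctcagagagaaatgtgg
Nfkbia region 45.4 kb downstream, chr12:55447189-55447318: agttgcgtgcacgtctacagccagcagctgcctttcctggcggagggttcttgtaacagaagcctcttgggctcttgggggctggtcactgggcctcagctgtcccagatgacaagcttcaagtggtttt
Nfkbiz region 35.1 kb downstream, chr16:55803728-55803874: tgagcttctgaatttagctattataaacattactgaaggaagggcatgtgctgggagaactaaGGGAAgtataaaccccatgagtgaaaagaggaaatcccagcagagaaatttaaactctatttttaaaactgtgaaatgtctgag
Over the family, the regions not printed included, the core was found in 11 of 27 regions (40.7%), against 35.6% of all regions, and among regions 100 to 200 bp wide in 52.4% against 37.2%.

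Relb encodes a subunit of the non-canonical pathway. Its single region (chr7:19628631-19628777), 734 bp downstream of the gene start and in a noncoding exon, was the most often detected of the family, in 34 of 227 cells (15%). It was detected in 10 of 48 cells of run 1 (20.8%, 10.5 to 35), 3 of 47 of run 2 (6.38%, 1.34 to 17.5), 9 of 60 of run 3 (15%, 7.10 to 26.6) and 12 of 72 of run 4 (16.7%, 8.92 to 27.3). Run 2 was the low one, and the deep run 1 the high one. After thinning the shares were 6.41% and 3.61% at 0 hours and 9.16% and 10.6% at 24 hours, so both 24-hour runs were then above both 0-hour runs. The log2 change was 0.61 (SE 0.64, edgeR adjusted p = 0.764).

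Nfkb1 and Nfkb2 encode the precursors p105 and p100, which are processed to p50 and p52. The Nfkb1 start region, 108.5 bp downstream in the 5′ UTR, was detected in 1, 1, 3 and 0 cells of runs 1 to 4, with a log2 change of 0.65 (SE 1.53, edgeR adjusted p = 0.911). The region 8.16 kb upstream was detected in 4 and 2 cells at 0 hours and in no cell at 24 hours. With both 24-hour runs pooled, the limit of 3 counts set for a count of 0 is a share of 2.27%. The exact 95% interval reaches 2.76%. After thinning, the shares of this region at 0 hours were 2.63% and 2.12%, and no fold is given. The most distant Nfkb1 region, 40.0 kb upstream, was detected in 6, 2, 8 and 2 cells, and both time-points held a high and a low run.

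The Nfkb2 region nearest the start, 110 bp downstream, was detected in 2, 1, 1 and 2 cells of runs 1 to 4 (log2 change -0.35, SE 1.53, edgeR adjusted p = 0.954). The narrow region 231 bp downstream, only 29 bp wide, was detected in 5 and 3 cells at 0 hours and in no cell at 24 hours. Its thinned shares at 0 hours were 3.87% and 2.94%. The remaining one, at 1.36 kb and 11 bp from the start of a shorter transcript, was detected in 7, 0, 3 and 2 cells. This region holds the kappaB consensus.

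**Figure D3:**
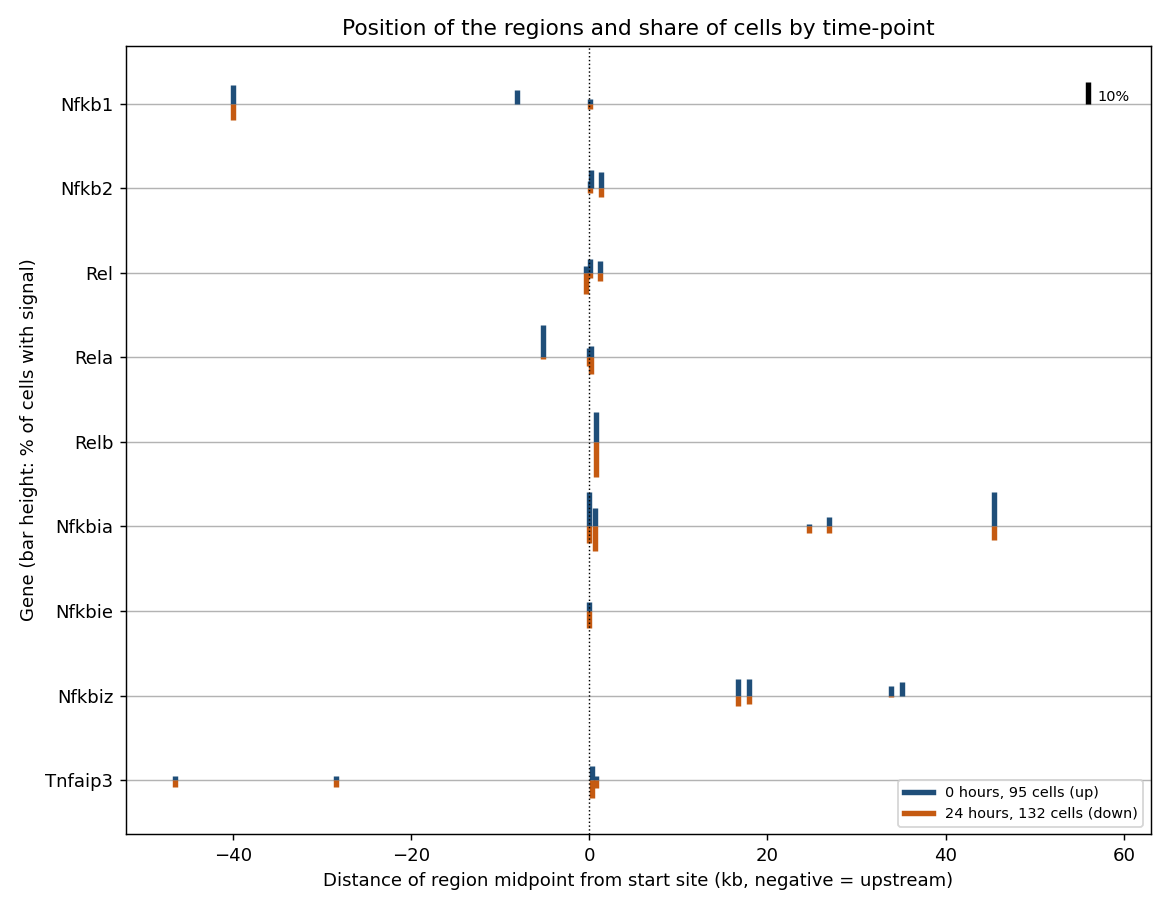
Distance of each region's midpoint from its gene's start site (x axis, kb, negative upstream) by gene (y axis), with bars for the share of cells with signal, upward for 0 hours and downward for 24 hours; the black bar is 10% of cells. The shares are as observed, not corrected for the deeper run 1, and were higher at 0 hours at 11 of 14 regions beyond 1 kb (all regions 76.4%) and 5 of 13 within 1 kb (all regions 57.7%). The 3 distant exceptions are Nfkbia at 24.7 kb and Tnfaip3 at 28.4 and 46.5 kb. Of the regions higher at 0 hours, 2 beyond 1 kb and 1 within had no cell at 24 hours. These are in the matrix only through their 0-hour cells.

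Among the inhibitors, Nfkbia encodes IkB-alpha, the classical inhibitor that NF-kappaB itself induces. It had the most regions of the family, with signal in any of its 5 regions in 70 of 227 cells (30.8%). The shares were 47.9% in run 1, 27.7% in run 2, 31.7% in run 3 and 20.8% in run 4. Its 3 most detected regions are given in turn.

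The Nfkbia region over the start site (chr12:55492522-55492719), which overlaps the 5′ UTR and coding exon and holds the kappaB consensus, was detected in 11 of 48 cells of run 1 (22.9%, 12.0 to 37.3), 4 of 47 of run 2 (8.51%, 2.37 to 20.4), 6 of 60 of run 3 (10.0%, 3.76 to 20.5) and 4 of 72 of run 4 (5.56%, 1.53 to 13.6). The time-points overlapped, and run 1 stood above the rest. After thinning the shares were 9.39% and 4.87% at 0 hours against 4.22% and 3.29% at 24 hours. The log2 change was -0.66 (SE 0.78, edgeR adjusted p = 0.796), which was -0.03 without run 1 and -2.22 in the random draw of thinned cells.

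The Nfkbia intron region (616 bp downstream) was detected in 6, 2, 6 and 9 cells of runs 1 to 4, or 12.5%, 4.26%, 10.0% and 12.5%. Run 2 was again the low one. The thinned shares were 5.08% and 1.64% at 0 hours and 5.36% and 7.36% at 24 hours, and the log2 change was 0.52 (SE 0.81, edgeR adjusted p = 0.860), which turned to -0.01 with the number of cells as scale. This region has the highest GC content of the family, 81%.

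The Nfkbia region 45.4 kb downstream was detected in 9 of 48 cells of run 1 (18.8%, 8.95 to 32.6), 6 of 47 of run 2 (12.8%, 4.83 to 25.7), 6 of 60 of run 3 (10.0%, 3.76 to 20.5) and 2 of 72 of run 4 (2.78%, 0.338 to 9.68). Both 0-hour runs were above both 24-hour runs, also after thinning, at 6.72% and 10.1% against 5.29% and 1.53%. The log2 change of -1.13 (SE 0.75, edgeR adjusted p = 0.586) did not pass the test, and ranged from -2.17 to -0.48 with 1 run left out. The other 2 regions, 24.7 kb and 26.9 kb downstream, were detected in 5 and 8 cells in all.

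Nfkbie encodes IkB-epsilon. Its region over the start site (49 bp upstream) was detected in 4, 0, 3 and 7 cells of runs 1 to 4, with a log2 change of 1.48 (SE 1.02, edgeR adjusted p = 0.602) that ranged from 0.73 to 1.84 without run 2, 3 or 4. Without run 1 the 0-hour side is at 0 and no fold is given. The 0 of 47 cells in run 2 set the low mean at 0 hours. Nfkbib, which encodes IkB-beta, had no region by the rule, because the nearest start site to the region in its 5′ UTR is that of Sirt2, 160.5 bp away. That region (chr7:28766500-28766649) was detected in 5, 5, 6 and 9 cells of runs 1 to 4, or 10.4%, 10.6%, 10.0% and 12.5%, with little spread between the runs.

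Nfkbiz encodes IkB-zeta, a nuclear IkB that acts with NF-kappaB at target promoters. Its region closest to the gene start lies 16.7 kb inside the gene and 39.5 bp from the start of a shorter transcript. It was detected in 5, 2, 4 and 2 cells of runs 1 to 4, with a log2 change of -0.23 (SE 0.99, edgeR adjusted p = 0.954). The regions further on were detected in 5, 2, 0 and 5 cells (17.9 kb), in 1, 3, 0 and 1 cells (33.9 kb) and in 2, 4, 0 and 0 cells (35.1 kb). Run 3 had no cell with signal at any of these 3, and the last had none at 24 hours. The thinned shares of the last at 0 hours were 0.612% and 5.40%.

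Tnfaip3 encodes A20, a ubiquitin-editing enzyme that ends NF-kappaB signalling. Its region at the start site (chr10:19015334-19015470), which holds the kappaB consensus, was detected in 4, 2, 5 and 6 cells of runs 1 to 4, or 8.33%, 4.26%, 8.33% and 8.33%. Only run 2 was lower. After thinning the shares were 2.38% and 3.34% at 0 hours and 3.57% and 5.87% at 24 hours. The log2 change was 1.14 (SE 0.90, edgeR adjusted p = 0.661).

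The other Tnfaip3 regions were detected in 6 or 7 cells each. The region 815 bp downstream was detected in 2 and 0 cells at 0 hours and in 5 and 0 cells at 24 hours, so 1 run of each time-point held all its signal. The region 28.4 kb upstream has 6 copies in the genome at 90% identity over 80% of its length, and its signal cannot be placed with certainty.

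Summing all regions of a gene gave more counts per test. Of 9 genes, 0 were called lower and 0 higher by edgeR after adjustment over 9894 genes, where 0.192% and 0.162% of all genes were called. At an unadjusted p under 0.05, 1 was lower and 0 were higher, beside 6.23% and 5.77% of all genes, and DESeq2 gave 0 at that unadjusted p. DESeq2 gave an adjusted p for 1 of the 9 genes only, Nfkbia (0.854), so the other 8 could not be called by it. Both 0-hour runs were above both 24-hour runs for 4 of 9 genes (Nfkb2, Rela, Nfkbia and Nfkbiz), where 21.9% of all genes were, and both 24-hour runs were above for 3 of 9 (Relb, Nfkbie and Tnfaip3), where 21.5% were. When every region with no count in a whole time-point was left out, the numbers were 3 and 3 of 9, beside 20.9% and 21.4% of 9783 genes, and Nfkb2 no longer showed the order. Of the 3 still higher at 0 hours, Nfkbia was close to a tie, at 290.7 CPM in run 2 and 289.9 in run 3. For Rela, 12 of 18 counts in run 1 and 10 of 17 in run 2 came from the region 5.16 kb upstream. That region is in the matrix only through its 0-hour cells.

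The 1 lower gene was Nfkbiz. Its normalized signal was 134.7 and 202 CPM (normalized for the depth of each run) at 0 hours and 54.4 and 78.98 at 24 hours. The log2 change was -1.28 (SE 0.63, unadjusted p = 0.0449, edgeR adjusted p = 0.397). Of its 35 counts at 0 hours, 7 came from the region 35.1 kb downstream, which is in the matrix only through its 0-hour cells. Without that region the signal was 120.5 and 139.04 CPM at 0 hours, above both 24-hour runs, and the change was not tested again. This sum still holds the region 33.9 kb downstream, which gives 6 of the 11 counts kept in run 2. With 4 cells at 0 hours and 1 at 24 hours, it too reaches the 5-cell minimum of the matrix only with its 0-hour cells. The remaining order therefore supports nothing. The opposite order was seen for Tnfaip3, at 92.1 and 37.9 CPM at 0 hours and 172 and 134.3 at 24 hours, with a log2 change of 1.13 (SE 0.64, edgeR adjusted p = 0.494). With 1 run left out this change ranged from 0.73 to 1.98. Nfkb2 had 134.7 and 75.8 CPM at 0 hours and 45.3 and 39.5 at 24 hours, but 11 of its 25 counts at 0 hours, 5 of 6 in run 2, came from the region 231 bp downstream, which is likewise in the matrix only through its 0-hour cells. Without it the 0-hour runs had 92.1 and 12.6 CPM and the time-points overlapped, so its fitted change is not given.

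**Figure D4:**
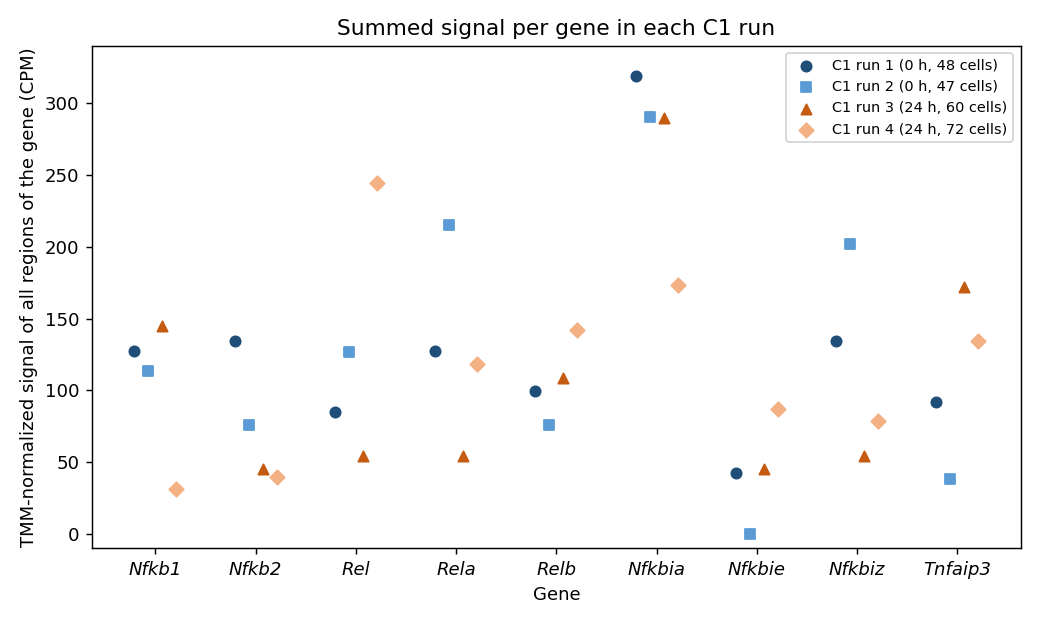
Normalized signal of all regions of a gene (y axis, CPM) in each C1 run (points) for the 9 genes with a region (x axis). Nfkbiz is higher in both 0-hour runs, Tnfaip3 in both 24-hour runs, and Rel is highest in run 4. The points of Nfkb1, Nfkb2 and Nfkbiz include 1 region each with no count at 24 hours, without which Nfkb2 in run 2 is at 12.6 CPM, below both 24-hour runs.

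Per cell, the number of the 27 regions detected averaged 2.31 in run 1, 1.19 in run 2, 1.27 in run 3 and 1.25 in run 4. Run 1 was also the deepest run. After thinning to 837 counts the means were 0.794 and 0.692 at 0 hours and 0.618 and 0.729 at 24 hours. The difference, 0.743 ± 0.0724 against 0.673 ± 0.0782 (SD, n = 2 runs each), gave p = 0.667 in a two-sided exact permutation test of the run means, and 0.333 is the smallest value this design can reach. Without the 3 regions with no cell at 24 hours the mean was 0.655 at 0 hours against 0.673 at 24 hours, so the direction of the difference rests on them. The regions took 0.0998%, 0.0972%, 0.0873% and 0.0933% of all counts of runs 1 to 4. Without the 3 regions with no cell at 24 hours, the shares were 0.0919%, 0.0831%, 0.0873% and 0.0933%, and the time-points overlapped. No test was run on this share.

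**Figure D5:**
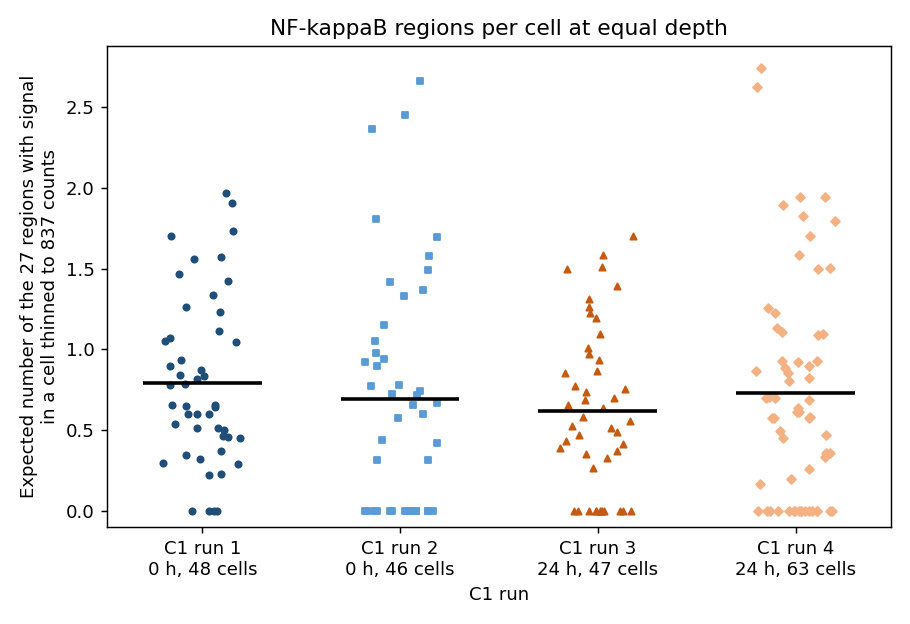
Expected number of the 27 regions with signal in a cell thinned to 837 counts (y axis) by C1 run (x axis); points are cells and bars are run means. The run means lie between 0.618 and 0.794, and the time-points overlap.

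The rest of the pathway was read from 6 lists: other IkB proteins, receptors, adaptors, kinases, ubiquitin enzymes and target genes. Together they held 53 tested genes, of which 0 were called by edgeR after adjustment over all genes. At an unadjusted p under 0.05, 1 was lower and 6 were higher, beside 6.23% and 5.77% of all genes, and the median log2 change was 0.01, against 0.04 for all genes and -0.41 for the 9 members. The member median includes the sums of Nfkb1, Nfkb2 and Nfkbiz, each with 1 region that is in the matrix only through its 0-hour cells. It turned to 0.025 with regions within 10 kb, so no difference between members and pathway is read from it. The receptors had 1 of 7 genes lower and 0 higher at that p, with a median of -0.66. The other lists had 0 lower. The adaptors had 3 of 15 genes higher (median 0.07), the kinases 2 of 7 (median 0.42), the ubiquitin enzymes 1 of 10 (median 0.44), the target genes 0 of 12 (median 0.06) and the other IkB proteins 0 of 2 (median -0.59).

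The gene of each list with signal in the most cells is given here, and none of the 6 passed the test. Bcl2l1, a target gene that encodes the survival protein Bcl-xL, had signal in 52.1%, 17.02%, 33.3% and 38.9% of cells of runs 1 to 4 (log2 change 0.64, edgeR adjusted p = 0.575). Among the adaptors, Birc2, which encodes a ubiquitin ligase of the TNF receptor complex, had signal in 33.3%, 38.3%, 18.3% and 48.6% (log2 change 0.19, edgeR adjusted p = 0.919). Map3k14, the kinase NIK of the non-canonical pathway, had signal in 29.2%, 12.8%, 18.3% and 38.9% (log2 change 0.94, edgeR adjusted p = 0.414). The time-points overlapped in all 3. Among the receptors, Tlr4, which senses lipopolysaccharide, had signal in 29.2% and 38.3% of cells at 0 hours and 20.0% and 2.78% at 24 hours (log2 change -0.98, edgeR adjusted p = 0.472), so that both 0-hour runs were above both 24-hour runs. Cyld, a deubiquitinase that restrains the pathway, had signal in 27.1%, 12.8%, 13.3% and 22.2% of cells (log2 change 0.33, edgeR adjusted p = 0.881). Bcl3, a nuclear IkB protein, had signal in 16.7%, 10.6%, 11.7% and 5.56% (log2 change -0.33, edgeR adjusted p = 0.920), and the time-points overlapped in both.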

How the data were processed

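Single-cell ATAC-seq was analysed in 227 cells of 4 C1 runs. The authors mapped reads to mm10 and called peaks on bulk samples, and the submitters' processing notes name Bowtie, Picard and HOMER. The authors deposited whole-number counts per region and cell, without normalization. No value exceeds 2, and the treatment of larger values was not given in the sources used here. Every column was used. The 6 bulk samples were not analysed here.

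Counts were summed per run and tested with edgeR 4.0.16 in R 4.3.3 (quasi-likelihood test, TMM, Benjamini-Hochberg, threshold 0.05), with DESeq2 1.42.0 as an alternative. The edgeR step was first checked with simulated counts. No doublet caller was run, since capture sites were inspected by the authors. Regions were assigned by midpoint to start sites of GENCODE vM21 protein-coding genes, taking the coordinates as given. Copies were counted with BLAST 2.17.0, and permutation tests were run in SciPy 1.17.1. Run totals were 164357, 92639, 122586 and 142611 counts, so most regions held few counts per run. Limits for a count of 0 rest on 3 counts.

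The members, the pathway lists and the tests were chosen with earlier results of these data known. Given in full were the region nearest each start site and any region in at least 10% of cells, and for each pathway list the gene with the most cells. The alternatives were DESeq2, run totals, the number of cells as offset, detected or not detected, thinned cells, a filter of 10% of cells, a threshold of 0.01, assignment within 10 kb and each run left out. Assignment by transcript start, a block for the run number in the column names, leaving out regions at 0 in a whole time-point, and the Rela and Rel regions singled out, were added after seeing the data. The regions most like the Relb region in their detection across cells were computed but are not reported here.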

Additional observations from a re-analysis of the deposited data

How the results depend on the processing

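Of the alternatives run for gene sums (DESeq2, the offset, 10 kb, the run block and each run left out), none called a member gene, though DESeq2 gave no adjusted p for 8 of 9. Of those run for regions, only leaving out run 3 called a member region (Rel 332.5 bp upstream). The median log2 change of the member regions, 0.18, turned to -0.23 with the number of cells as offset, to -0.34 among regions in at least 10% of cells and to -0.23 with transcript starts (added after seeing the data), and ranged from -0.32 to 0.15 with 1 run left out. That of the member genes turned from -0.41 to 0.025 with regions within 10 kb, which left 17 of 27 member regions. Over all regions, calls lower and higher (3 and 8) became 0 and 0 by DESeq2, with detected or not detected values and with thinned cells, 12 and 21 with run totals, 3 and 0 with the offset, 10 and 8 with the 10% filter, 0 and 4 at a threshold of 0.01, and 0 to 341 and 1 to 456 with 1 run left out. Over all genes (19 and 16) they became 0 and 0 by DESeq2 and with the offset, 0 and 2 within 10 kb, 7 and 5 with the run block, and 0 to 246 and 0 to 282 with 1 run left out. Leaving out run 3 gave the highest of these counts; the lone run of a time-point was then assumed to vary like the others.

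Among single values that changed sign, with the offset Rela 38.5 bp upstream became -0.23 and the Nfkbia intron region -0.012. Nfkb2 110 bp downstream became 0.063 with detected values, and the first Nfkbiz region 0.26 with thinned cells. Over the fits that omitted 1 run, the log2 change was -3.79 to 1.67 at Nfkb1 108.5 bp downstream, -0.82 to 0.15 at Nfkb2 110 bp, -1.34 to 6.74 at Rel 332.5 bp upstream, -0.18 to 0.55 at Rela 38.5 bp upstream, -0.88 to 0.23 at the first Nfkbiz region, -1.91 to 0.25 for the Nfkb1 sum and -0.90 to 1.26 for the Rel sum. The ends -3.79 and 6.74 set a time-point whose lone run is at 0 counts against the other, depend on the prior count and are no measured change. The ratio of member regions per cell, 0.906, was 0.844 when thinned to the 5th percentile, 0.718 without thinning, 1.03 without the 3 member regions with no cell at 24 hours (added after seeing the data) and 0.832 to 0.981 with 1 run left out.

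The labels number the C1 runs 1 to 4, but the matrix's columns number them 1 and 2 within each time-point (runs 1 and 3, runs 2 and 4). Same-numbered runs did not deviate together: the correlation of their deviations in log2(CPM + 1) was -0.011 over regions and -0.016 over genes. With this replicate number as a block, added after seeing the data, 2 regions were lower and 9 higher, and 0 members were called. With 5 to 34 cells per member region, the member fits had wide errors, and a p above the threshold does not show that a region did not differ.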

Other observations

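When every protein-coding transcript start was counted in place of the gene start, 6 more regions fell to the family. One was the Nfkbib region already described, near a transcript start. At Nfkb1, 3 regions lay 26.3 to 27.6 kb downstream of a transcript start and beyond the gene's 3′ end. The region at chr3:135580589-135580716 was detected in 9 of 48 and 6 of 47 cells at 0 hours and in 2 of 60 and 1 of 72 at 24 hours. The region at chr3:135581918-135582059 was detected in 8, 3, 1 and 4 cells of runs 1 to 4, and the one between them in 4, 0, 1 and 1 cells. The remaining regions, one at Nfkb1 and one at Nfkbiz, were detected in 5 cells each. These regions were chosen after seeing the data and were not tested as a group.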
